A study of Rattus norvegicus with 12 samples.

Results

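ATP-binding cassette (ABC) transporters are membrane pumps that use ATP to move compounds across membranes, and 8 of them that carry drugs, conjugates and lipids out of liver cells were followed here. They were chosen by symbol from the deposited gene table, as Abcc3, Abcc4, Abcc6, Abcc2, Abcb4, Abcb1a, Abcb1b and Abcg2. These are 8 of 40154 genes, and all 8 passed the filter on low counts that left 15916 genes. RNA was sequenced from livers of Sprague Dawley rats in 4 groups of 3 libraries. The Control group received a normal diet, the Control+SAMC group a normal diet with S-allylmercaptocysteine (SAMC), the HFD group a high fat diet, and the HFD+SAMC group the high fat diet with SAMC. SAMC is a water-soluble organosulfur compound of aged garlic. The study's title places the work in non-alcoholic fatty liver disease and names drug-metabolising enzymes under the transcription factors AhR and Nrf2. Dose, length of treatment, age and sex are not among the labels. Nothing there says that the libraries came from separate animals, so p-values measure the spread between these libraries, which may be technical.

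A hepatocyte has a canalicular face, which borders the bile channel, and a basolateral face, which borders the blood. Pumps in the canalicular membrane send their cargo into bile, while basolateral pumps return it to blood and serve as a second way out. Foreign compounds are usually first joined to glutathione, glucuronic acid or sulfate by conjugating enzymes, and several of these pumps then export the conjugates. In rodent liver the genes of such pumps, those of basolateral pumps among them, are known to respond to nuclear receptors and to Nrf2.

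Depth was high and even, with 45680738 to 61937544 counted reads per library. Hepatocyte markers were abundant in every library, and their summed level was 85450 to 298300 CPM (read counts scaled to the size of the library). By group the sum was 107700 to 298300 CPM in Control, 115300 to 168100 in Control+SAMC, 87880 to 123100 in HFD and 85450 to 113600 in HFD+SAMC. Of the 6 markers, 0 had a log2 fold change above 0 in HFD against Control (median -0.568). The same held in HFD+SAMC against Control (0 of 6, median -0.903), and 0 passed the threshold in either. The marker Hnf4a was lowest in the HFD+SAMC libraries, at 500 to 649 CPM against 874 to 1236 CPM in the other 9, and its test against Control missed the threshold (edgeR quasi-likelihood test, adjusted p = 0.0536). HFD+SAMC replicate 3 held muscle RNA, with Acta1 at 440 CPM against at most 0.135 CPM elsewhere. Of the lists of markers for other cells, 1 gene passed in any comparison, the sinusoidal endothelial Clec4g, which was lower with SAMC averaged over the diets (log2 fold change -0.74 ± 0.12, SE, adjusted p = 0.0297). No macrophage, stellate or erythroid marker passed. Of the 6 muscle markers only 2, Mylpf and Tnnt3, were left by the filter to be tested, and 0 passed. In whole liver, fewer cells of a type and less RNA per cell cannot be told apart. The deposited RPKM (reads per kilobase and library size) of the gene RGD1562465 splits the libraries into 2 sets. It was computed on 3377 bp for Control and HFD+SAMC but on 4432 bp for Control+SAMC and HFD. Whether these sets were processed or sequenced apart is not known. HFD+SAMC against Control stays within a set and the averaged effects of SAMC and of diet balance the sets, while each of the other pairwise comparisons crosses them. The interaction of diet and SAMC cannot be told apart from the sets.

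In the deposited table, which names no genome build, 3 of the canalicular genes lie side by side on the minus strand of chromosome 4. Abcb4 spans 22133984 to 22192687, Abcb1b spans 22225123 to 22307577, and Abcb1a spans 22339829 to 22517642, with gaps of 32435 bp and 32251 bp. Abcg2 lies farther along that chromosome, on the plus strand at 88765441 to 88890268. Chromosome 1 holds Abcc2 on the plus strand at 263554426 to 263612556 and Abcc6 on the minus strand at 101954786 to 102013252. Abcc3 lies on the minus strand of chromosome 10 at 82047308 to 82116928, and Abcc4 on the minus strand of chromosome 15 at 103695415 to 103927980. All 8 are listed as protein coding, and each value is for the whole gene.

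The 250 bases before the transcription start are shown for Abcc2 and Abcb1a, which were highest in the same 4 libraries, and for Abcb1b, the neighbour of Abcb1a, which was not. The windows are from RefSeq, build GRCr8, at chr1:252613625-252613874 (plus strand) for Abcc2, chr4:26397649-26397898 (minus strand) for Abcb1a and chr4:26280030-26280279 (minus strand) for Abcb1b. They run 5′ to 3′, and capitals mark the GC box GGGCGG and the CCAAT box CCAAT, each on either strand.
Abcc2: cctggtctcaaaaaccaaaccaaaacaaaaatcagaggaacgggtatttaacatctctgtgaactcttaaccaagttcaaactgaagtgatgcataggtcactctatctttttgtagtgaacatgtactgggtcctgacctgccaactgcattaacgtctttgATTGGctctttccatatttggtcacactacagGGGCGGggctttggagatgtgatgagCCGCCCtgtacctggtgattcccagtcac
Abcb1a: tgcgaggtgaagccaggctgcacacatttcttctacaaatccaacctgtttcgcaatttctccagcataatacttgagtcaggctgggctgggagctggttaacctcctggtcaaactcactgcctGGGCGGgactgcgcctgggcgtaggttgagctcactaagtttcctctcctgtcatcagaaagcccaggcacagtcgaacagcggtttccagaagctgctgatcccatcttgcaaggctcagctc
Abcb1b: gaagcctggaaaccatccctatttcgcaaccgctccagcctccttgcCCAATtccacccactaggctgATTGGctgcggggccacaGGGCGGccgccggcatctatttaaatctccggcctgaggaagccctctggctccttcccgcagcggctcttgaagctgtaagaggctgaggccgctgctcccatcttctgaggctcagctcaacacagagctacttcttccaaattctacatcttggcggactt
A window was present for 7 of the 8 members, that is all but Abcc3. The GC box was in 7 of these 7 windows, against 30.5% of 33469 rat windows of the same length. A CCAAT box was in 3 of 7, namely Abcc2, Abcb1b and Abcc6, against 34.0%. The core of the antioxidant response element, TGACNNNGC, was in 0 of 7 windows against 10.1%, and the core of the xenobiotic response element, GCGTG, was in 2, Abcb4 and Abcc4, against 25.9%. Both strands were searched, and the GC box and CCAAT box share no letters in the 3 windows shown. These matches describe letters only.

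Between genes, levels were compared per length, as deposited RPKM. Abcc2, the canalicular exporter of bilirubin glucuronides and glutathione conjugates, had the highest RPKM of the 8 in all 12 libraries, with a median of 130.4 and a range of 86.5 to 269.6. Abcb4, which moves phosphatidylcholine into bile, followed with a median RPKM of 46.1 and was the second in 11 of 12 libraries. Abcc6, a basolateral protein needed for ATP release by hepatocytes, had a median RPKM of 30.4 and exceeded Abcb4 in HFD replicate 3. Abcg2 followed with a median RPKM of 8.89. In HFD+SAMC replicate 2, Abcb1b at 35.1 RPKM exceeded Abcc6 at 31.4 RPKM. Abcb1b, Abcc3, Abcc4 and Abcb1a had median RPKM of 3.68, 2.91, 2.81 and 2.61, and their ranges over the libraries overlapped, so their order is not fixed. The place of Abcc3 differed by group. It had the lowest RPKM of the 8 in all 3 Control libraries, the lowest or next to lowest in the HFD libraries, and rank 4 to 6 in the 6 libraries with SAMC.

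Abcc3 (MRP3), the basolateral exporter of glucuronides, rose with SAMC on the normal diet and was the only member past the threshold of an adjusted p of 0.05 in any comparison. Its level in Control was 4.14, 5.24 and 3.34 CPM in replicates 1, 2 and 3, and in Control+SAMC it was 57.2, 31.2 and 19.8 CPM. The 3 SAMC libraries were all above the 3 controls, and the lowest of them was several times the highest control. The fitted log2 fold change was 3.09 ± 0.40 (SE, n = 3 per group), or 8.51-fold, with an adjusted p of 0.0194 by edgeR's quasi-likelihood test. The Abcc3 call was lost without any of the Control replicates 1, 2 and 3 (adjusted p = 0.0925, 0.0743 and 0.161), while its log2 fold change stayed between 2.59 and 3.38 over the 12 fits that each left out a library.

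With the high fat diet alone, Abcc3 was 12.2, 16.2 and 12.4 CPM in replicates 2, 3 and 4, above every Control library and below every library with SAMC. Its log2 fold change against Control was 1.68 ± 0.38 (SE), or 3.21-fold, with an unadjusted p of 0.00102 that did not pass over all genes (edgeR adjusted p = 0.158). In HFD+SAMC, Abcc3 was 36.3, 58.8 and 28.7 CPM. Against HFD its log2 fold change was 1.60 ± 0.37 (edgeR adjusted p = 0.208), also without overlap of the groups and also short of the threshold. DESeq2 on the same counts put both past it (adjusted p = 0.00111 and 0.00275).

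With diet and SAMC together, Abcc3 rose 9.74-fold over Control (log2 fold change 3.28 ± 0.40, edgeR adjusted p = 0.00817), the comparison that stays within a set of libraries. That call was lost without Control replicate 3 (adjusted p = 0.0794). Averaged over the diets, Abcc3 rose 5.08-fold with SAMC (log2 fold change 2.35 ± 0.27, edgeR adjusted p = 0.00725), and this call held in each of the 12 fits that left out a library (adjusted p 0.00204 to 0.0475). It was lost without the 4 libraries lowest in the transcript Fga, described with Abcc2 (2.25 ± 0.32, adjusted p = 0.0772), as was the call on the normal diet (2.77 ± 0.40, adjusted p = 0.106). The log2 fold change of Abcc3 in HFD+SAMC against Control+SAMC was 0.19, with a 95% interval from -0.60 to 0.99. The interaction was -1.49 ± 0.52 (unadjusted p = 0.0156, edgeR adjusted p = 0.580), so the SAMC effects on the 2 diets did not differ past the threshold, and this difference is the one that cannot be told apart from the sets of libraries.

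Bile duct cells also express Abcc3, and their markers were read beside it. Of 8 cholangiocyte markers, 0 passed edgeR's threshold in any comparison, and their summed level was 64.9 to 89.3 CPM in Control, 83.0 to 93.8 in Control+SAMC, 75.8 to 81.4 in HFD and 70.7 to 89.0 in HFD+SAMC, with no marker at 0 throughout a group. Most of that sum was Slc4a2. Epcam, an epithelial adhesion molecule of bile ducts, ran from 2.58 to 5.76 CPM in Control, 5.85 to 8.97 in Control+SAMC, 4.05 to 4.78 in HFD and 6.85 to 10.6 in HFD+SAMC. It was thus higher in the 6 libraries with SAMC than in the 6 without, as Abcc3 was, but by a narrow gap (5.85 against 5.76 CPM). The share of all genes that separate these libraries was not counted. The averaged SAMC log2 fold change of Epcam was 0.97 ± 0.21 (edgeR adjusted p = 0.0805). Epcam did pass with DESeq2 (adjusted p = 0.00164), with no filter on low counts (0.0448) and without Control replicate 1 (0.0223). Krt19, a bile duct keratin, was 1.5 to 3.53 CPM in Control and 4.41 to 5.30 in Control+SAMC, also without overlap, and 2.15 to 3.70 in HFD and 3.35 to 4.36 in HFD+SAMC (averaged SAMC log2 fold change 0.77 ± 0.23, edgeR adjusted p = 0.196). The chloride channel Cftr and the mucin Muc1 had lower means in Control+SAMC than in Control, 0.103 against 0.424 CPM and 0.455 against 0.841 CPM. In HFD+SAMC against HFD the mean of Cftr was also lower (0.13 against 0.33 CPM), but that of Muc1 was higher (1.12 against 0.618 CPM). The markers Sox9 (2.65 against 1.49 CPM) and Spp1 (4.76 against 2.29 CPM) were higher there too. For that comparison 6 of the 8 markers were above 0, with a median log2 fold change of 0.645. With SAMC averaged over the diets, 5 of the 8 markers were above 0. The part of bile duct cells in the Abcc3 difference was not tested.

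Abcc4 (MRP4) exports cyclic nucleotides and, with glutathione, bile acids across the basolateral membrane. It was 12.5, 18.3 and 14.1 CPM in Control and 39.1, 29.1 and 19.5 CPM in Control+SAMC. The groups did not overlap, but the lowest SAMC library lay close to the highest control. The log2 fold change was 0.97 ± 0.25 (SE), or 1.95-fold, with an unadjusted p of 0.00246 and an edgeR adjusted p of 0.229. DESeq2 called it (adjusted p = 0.0379). Abcc4 was 15.3, 13.7 and 20.6 CPM in HFD replicates 2, 3 and 4 and 14.5, 20.6 and 16.9 CPM in HFD+SAMC. These groups overlapped, with all HFD+SAMC libraries inside the range of HFD (log2 fold change 0.06 ± 0.25, edgeR adjusted p = 0.954). The difference between the SAMC effects of Abcc4 on the 2 diets was -0.90 ± 0.36 on the log2 scale and did not pass (edgeR adjusted p = 0.623).

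Abcc6 varied least, with 1.91-fold between its lowest and highest library. Its group means were 265 ± 75.1 CPM in Control, 203 ± 17.3 in Control+SAMC, 297 ± 56.4 in HFD and 273 ± 50.9 in HFD+SAMC (SD, n = 3). All HFD+SAMC libraries, at 236.5 CPM or more, were above all Control+SAMC libraries, at 213 CPM or less. Its log2 fold change with SAMC on the normal diet was -0.39 ± 0.22 (edgeR adjusted p = 0.5996).

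Among the canalicular pumps, Abcc2 (MRP2) was 587, 1285 and 726 CPM in Control, 1024, 720 and 544 CPM in Control+SAMC, 1011, 1158 and 637 CPM in HFD, and 732, 543 and 419 CPM in HFD+SAMC. Every group overlapped every other. The HFD+SAMC group had the lowest mean, 565 ± 158 CPM against 935 ± 268 CPM in HFD (SD, n = 3), and the log2 fold change of -0.73 ± 0.34 did not pass (unadjusted p = 0.0561, edgeR adjusted p = 0.481). Averaged over the diets, the SAMC log2 fold change of Abcc2 was -0.46 ± 0.24 (edgeR adjusted p = 0.473).

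The spread of Abcc2 inside the groups moved with another transcript of these livers. In 4 libraries, Control replicate 2, Control+SAMC replicate 1 and HFD replicates 2 and 3, the fibrinogen alpha chain transcript Fga was at 3378 to 3822 CPM, against 8221 to 18523 CPM in the other 8. Abcc2 was 1011 to 1285 CPM in these 4 and 419 to 732 CPM in the other 8. Abcb1a was likewise highest in these 4, at 20.59 to 35.2 CPM against 11.03 to 20.43 CPM, a narrow gap. Both genes thus separated the libraries without overlap, but the share of all genes that do so was not counted. Abcc6 had 3 of its 4 highest libraries among these 4, Abcb4, Abcg2, Abcc3 and Abcc4 had 1 each, and Abcb1b had 0. No HFD+SAMC library is among the 4. Without them the Abcc2 log2 fold change in HFD+SAMC against HFD was -0.17 ± 0.31, with HFD replicate 4 as the lone HFD library and assumed to vary like the other groups. The comparison with Fga was chosen after the values were seen, and its part in the differences between groups was not tested.

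**Figure D1:**
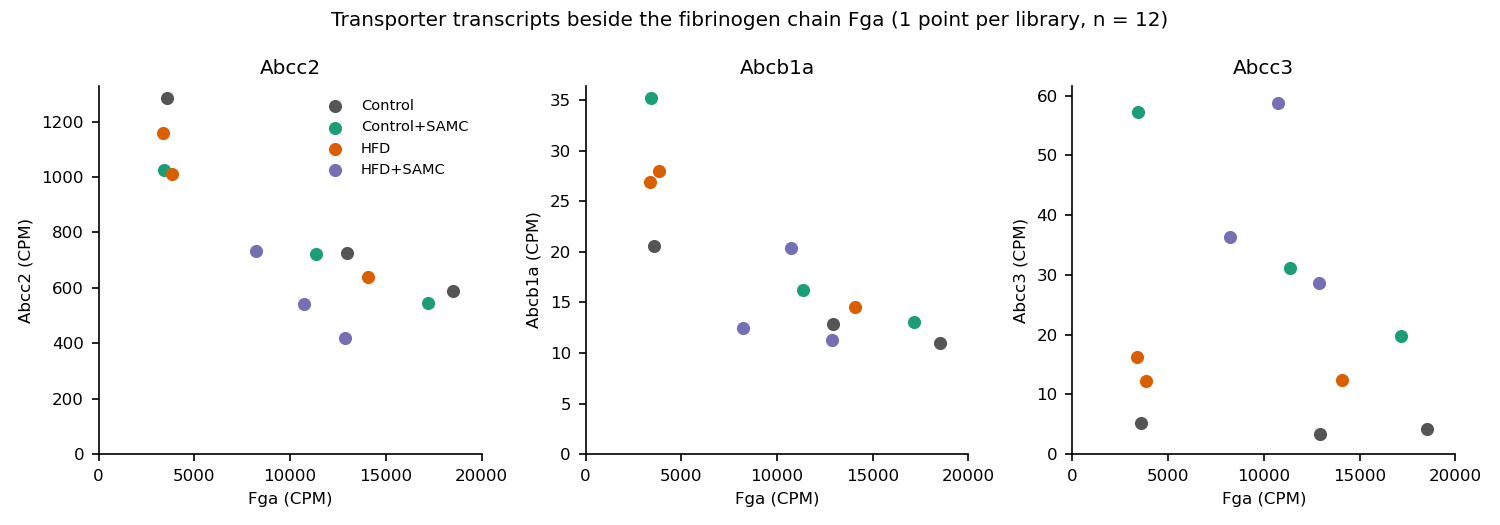
Level of Abcc2, Abcb1a and Abcc3 against Fga in the 12 libraries, both in CPM, with each point a library and its group in the legend. Abcc2 and Abcb1a are highest in the 4 libraries with Fga at 3378 to 3822 CPM, and Abcc3 does not separate them.

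Abcb1a and Abcb1b both encode P-glycoprotein, the exporter of bulky hydrophobic drugs, and are close paralogs. How the authors counted reads that match both is not given, so their values are uncertain to that extent, and the share of such reads was not measured. Abcb1a was 11.03, 20.6 and 12.9 CPM in Control, 35.2, 16.3 and 13.1 CPM in Control+SAMC, 28.01, 26.9 and 14.5 CPM in HFD, and 12.5, 20.4 and 11.3 CPM in HFD+SAMC. In each of the first 3 groups the high values were the libraries low in Fga. Its log2 fold change was 0.64 ± 0.41 for HFD against Control (edgeR adjusted p = 0.619) and -0.65 ± 0.41 for HFD+SAMC against HFD (edgeR adjusted p = 0.615), and without the 4 libraries the second became 0.025.

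Abcb1b was the most variable member, with 44.5-fold between its lowest and highest library. It was 5.49, 7.54 and 19.5 CPM in Control, 13.1, 49.1 and 7.18 CPM in Control+SAMC, and 16.3, 31.4 and 37.9 CPM in HFD replicates 2, 3 and 4. In HFD+SAMC it was 3.41, 152 and 72.6 CPM, so that this group held both the lowest and the 2 highest libraries. The log2 fold change of HFD+SAMC against Control was 2.81 ± 1.16 (unadjusted p = 0.0371, edgeR adjusted p = 0.361), and the averaged diet effect was 1.56 ± 0.79 (edgeR adjusted p = 0.429). Neither passed over all genes, and 1 library moved the first from 2.81 to 1.81 (without HFD+SAMC replicate 2) or 3.53 (without Control replicate 3). Leaving out HFD+SAMC replicate 2 gave 1.06 for the averaged diet effect of Abcb1b, and leaving out Control+SAMC replicate 2 gave 2.15. Abcb1a was the highest of its group in HFD+SAMC replicate 2, where Abcb1b peaked, and the lowest in replicate 3.

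Abcb4 (MDR2) was 316, 256 and 260 CPM in Control and 219, 229 and 162 CPM in Control+SAMC, and these groups did not overlap. The log2 fold change was -0.45 ± 0.24 (edgeR adjusted p = 0.584). In HFD it was 341, 211 and 278 CPM in replicates 2, 3 and 4, and in HFD+SAMC 304, 396 and 206 CPM. The HFD+SAMC group was above Control+SAMC by a log2 fold change of 0.57 ± 0.24, with overlap and without passing (edgeR adjusted p = 0.422). Abcg2, the breast cancer resistance protein, which carries sulfates and urate, had group means of 38.8 ± 9.96 CPM in Control, 24.9 ± 19.2 in Control+SAMC, 34.4 ± 6.75 in HFD and 27.1 ± 8.13 in HFD+SAMC (SD, n = 3). Its lowest library, at 9.57 CPM, and its second highest, at 46.5 CPM, were both in Control+SAMC. The averaged SAMC log2 fold change of Abcg2 was -0.49 ± 0.34 (edgeR adjusted p = 0.591).

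Counted over the 8 members, SAMC averaged over the diets gave 1 call, Abcc3, where 0.22% of all tested genes were called. The members' median log2 fold change was -0.11, and 3 of 8 were above 0. On the normal diet SAMC also gave 1 call (0.119% of all genes), and the libraries of 3 members did not overlap, Abcc3 and Abcc4 higher and Abcb4 lower, where 13.5% of all genes did not overlap. HFD+SAMC against Control gave 1 call (0.176% of all genes) and 1 member without overlap (19.7%), again Abcc3. Because these comparisons share libraries, the repeated call is not separate evidence.

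In the remaining comparisons edgeR called 0 members. For HFD against Control, where 0.145% of all genes were called, 1 member had an unadjusted p under 0.05, as did 10.7% of all genes, and DESeq2 called 1. For HFD+SAMC against HFD (0.0503% of all genes), the same counts were 1 (10.6% of all genes) and 1. For HFD+SAMC against Control+SAMC (0.0628%) they were 2 (10.9%) and 0, for diet averaged over SAMC (0.421%) 1 (13.6%) and 1, and for the interaction (0.145%) 2 (7.41%) and 0. The percentages of genes called are edgeR's. DESeq2 called more, at 315, 249, 272, 538 and 128 of 15916 genes in the same order, so its member counts do not belong beside those percentages. A count of 1 in 8 with an unadjusted p under 0.05 is about the share of all genes. In each of the first 3 of these comparisons, 1 member was without overlap, namely Abcc3, Abcc3 and Abcc6, against 14.7%, 18.8% and 17.8% of all genes.

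**Figure D2:**
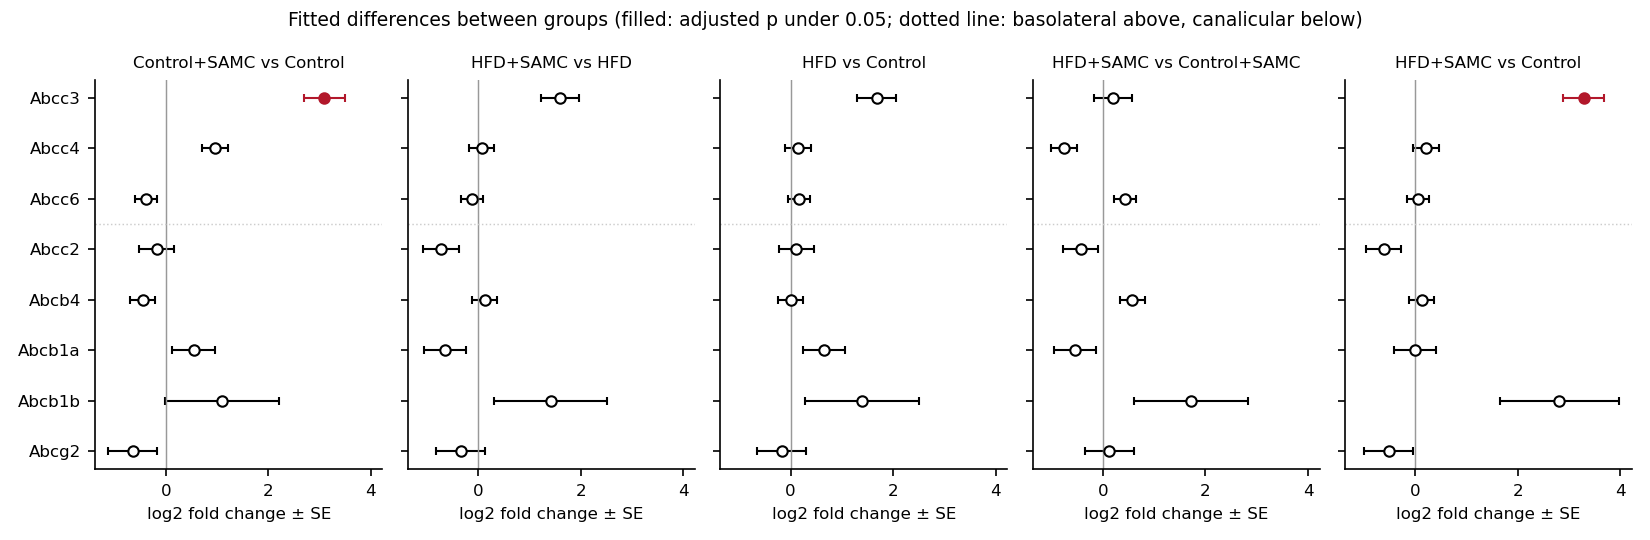
Log2 fold change of each of the 8 transporters in the 5 comparisons of 2 groups, with bars for the SE and filled points past an adjusted p of 0.05. Abcc3 is the only member with filled points, at 3.09 for Control+SAMC against Control and 3.28 for HFD+SAMC against Control.

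The basolateral pumps Abcc3 and Abcc4 were then set beside the canalicular ones. Their summed RPKM, as a percentage of the summed RPKM of Abcc2, Abcb4, Abcb1a, Abcb1b and Abcg2, was 1.40, 1.22 and 1.36 in Control and 5.88, 4.74 and 4.03 in Control+SAMC. It was 1.56, 1.63 and 2.69 in HFD replicates 2, 3 and 4, and 3.76, 5.44 and 4.81 in HFD+SAMC. All 6 libraries with SAMC were thus above all 6 without. The canalicular sum had group means between 201 and 282 RPKM. It ran from 151 RPKM in Control+SAMC replicate 3 to 344 RPKM in HFD replicate 3, so the percentage also carries that spread. Abcc6, whose level was far higher than that of either, is not in this sum. With Abcc6 added, the percentage was 14.6 to 17.1 in the 6 libraries without SAMC and 15.9 to 25.5 in the 6 with it, and these overlapped. The sum of Abcc3 and Abcc4 itself was 2.57 to 3.06 RPKM in Control and 6.07 to 15.8 RPKM in Control+SAMC. It was 4.62 to 5.59 RPKM in HFD, close to the lowest Control+SAMC library, and 7.47 to 13.4 RPKM in HFD+SAMC. On the high fat diet the mean of Abcc3 was 6.75 RPKM with SAMC against 2.27 without, and that of Abcc4 was 3.08 against 2.97. Deposited RPKM was scaled to total counts, without the scaling factors (TMM) used for CPM. These were 0.795 to 0.967 in Control and 1.04 to 1.18 in HFD, so RPKM between groups also carries them. Abcc4 in HFD was 2.67 to 3.56 RPKM against 2.01 to 2.42 RPKM in Control, without overlap, while its CPM overlapped. The percentages within a library are free of this scaling. No p is given for these sums of chosen members.

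Between the basolateral pair, the RPKM of Abcc3 was 0.260 ± 0.0428 times that of Abcc4 in Control, 1.08 ± 0.222 in Control+SAMC, 0.785 ± 0.269 in HFD and 2.15 ± 0.543 in HFD+SAMC (SD, n = 3). Abcc4 was the larger in Control, and Abcc3 the larger in every HFD+SAMC library. Abcc3 was 0.403 ± 0.122% of Abcc2 in Control, 3.47 ± 0.755% in Control+SAMC, 1.17 ± 0.291% in HFD and 5.79 ± 2.30% in HFD+SAMC. Even at its highest, 8.32% in HFD+SAMC replicate 2, it was a minor transcript beside Abcc2.

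**Figure D3:**
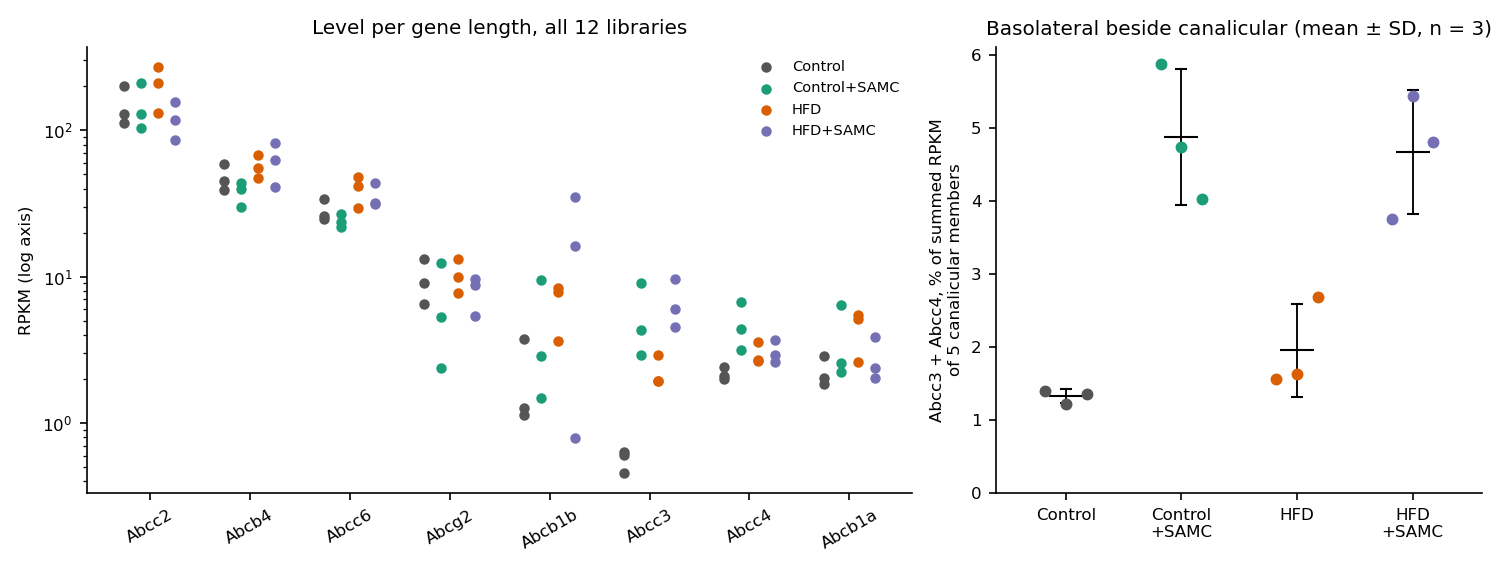
Deposited RPKM of the 8 transporters on a log axis and, beside it, the summed RPKM of Abcc3 and Abcc4 as a percentage of the canalicular sum, with each point a library. The percentage is 1.22 to 2.69 in the 6 libraries without SAMC and 3.76 to 5.88 in the 6 with it.

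Other ABC genes gave few calls. Of 35 tested, 0 passed with SAMC averaged over the diets, with a median log2 fold change of -0.0053 against -0.0047 for all genes. Abca8a, a lipid transporter of the A subfamily, was the only one to pass edgeR's test in any comparison, and fell by 1.18 ± 0.19 on the log2 scale in HFD+SAMC against Control (edgeR adjusted p = 0.0297). That call was lost without Control replicate 2 or 3 or any HFD+SAMC library (adjusted p 0.0834 to 0.151). The canalicular sterol pair had log2 fold changes of 1.94 ± 0.53 for Abcg5 and 2.03 ± 0.61 for Abcg8 in HFD against Control, and did not pass (edgeR adjusted p = 0.225 and 0.262), while DESeq2 called both (adjusted p = 0.00667 and 0.0287). For HFD+SAMC against HFD, Abcg8 was at -2.51 ± 0.62 (edgeR adjusted p = 0.244) and Abcd2, a peroxisomal importer of fatty acids, at 2.07 ± 0.36 (edgeR adjusted p = 0.0689). DESeq2 called both (adjusted p = 0.00311 and 8.36e-06), and edgeR called Abcd2 with no filter on low counts (0.0208) and without Control replicate 1 (0.0115). Of 12 tested genes for uptake and bile salt transport, 0 passed in any comparison.

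The lists of Nrf2 targets and of targets of the receptors CAR and PXR were drawn up with earlier results of these data known, and so are not independent evidence. With SAMC averaged over the diets, 8 of 23 tested Nrf2 targets rose and 0 fell, with a median log2 fold change of 0.53. The glutathione transferases Gsta3, Gstm1 and Gstp1, which make the conjugates that MRP pumps carry, rose by 2.00, 1.71 and 1.69 on the log2 scale. Among the others were the reductases Akr1b8 and Akr7a3 at 4.49 and 3.09, the epoxide hydrolase Ephx1 at 1.80 and glutathione reductase Gsr at 0.66. The calls of Akr7a3, Gsta3, Gstm1 and Gstp1 held in each fit that left out a library, and those of Akr1b8, Ephx1 and Gsr did not. Akr1b8 lost its call without Control replicate 3 or any HFD library (adjusted p up to 0.0871), and Gsr without Control replicate 3, Control+SAMC replicate 1, any HFD library or HFD+SAMC replicate 1 or 2 (up to 0.111). Ephx1 lost its call without any library but Control+SAMC replicates 2 and 3 (up to 0.111). On the normal diet 6 of 23 rose, with a median of 1.09, on the high fat diet 2, with a median of 0.30, and in HFD+SAMC against Control 3. With diet averaged over SAMC, 1 Nrf2 target passed, Gstp1, which fell by 0.49, and that call was lost without any library but HFD+SAMC replicate 1 (adjusted p up to 0.13).

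Of 16 tested CAR and PXR targets, 3 rose with SAMC averaged over the diets, Cyp2b1 at 2.64, Cyp2b2 at 2.62 and the retinal dehydrogenase Aldh1a1 at 1.25 on the log2 scale, and the list's median was 0.21. Aldh1a1 lost its call without Control replicate 3 (adjusted p = 0.0794). With diet averaged over SAMC, Cyp2b1, Cyp2b2 and Cyp3a18 rose by 4.14, 3.68 and 1.86, with a median of 0.33. The Cyp3a18 call was lost without Control replicate 3, Control+SAMC replicate 1 or 3, or HFD replicate 2 or 3 (adjusted p up to 0.0657). The diet log2 fold change of Abcc3 was 0.94 ± 0.26 (edgeR adjusted p = 0.164, DESeq2 adjusted p = 0.0165), and the genes were not tested against each other. Of 10 regulator genes, which included Nfe2l2 (Nrf2), Ahr, Nr1i2 (PXR) and Nr1i3 (CAR), 0 passed with SAMC. Nr1i3 rose by 2.05 ± 0.34 with diet averaged over SAMC (edgeR adjusted p = 0.0314), a call lost without any of 9 libraries, all but Control+SAMC replicates 1 and 3 and HFD replicate 4 (adjusted p up to 0.096).

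The genes whose log2 CPM was most like that of Abcc3 over the 12 libraries were Bhlhe41, a repressor of the circadian clock family (Pearson r 0.953), Aldh1a1 (0.938), the vitamin transporter Slc5a6 (0.921), Susd2 (0.919) and Gstm1 (0.919). Bhlhe41 and Susd2 were low, with means of 0.976, 3.92, 1.91 and 4.02 CPM and of 2.88, 6.75, 3.82 and 6.26 CPM in Control, Control+SAMC, HFD and HFD+SAMC. Aldh1a1 was at 65.1, 204, 114 and 204 CPM and Gstm1 at 343, 1338, 469 and 1293 CPM in Control, Control+SAMC, HFD and HFD+SAMC, the same order as Abcc3 apart from the 2 groups with SAMC. For Abcc4 they were the splicing factor kinase Srpk2 (0.909), the splicing regulator Mbnl2 (0.885), Cnih4 (0.881), the chloride transporter Clcn6 (0.865) and Oasl (0.865). Mbnl2 was at 39.5, 78.0, 50.1 and 50.8 CPM in the same group order, highest in Control+SAMC as Abcc4 was. No gene was among the 5 for both. The 12 libraries share groups and depth, so these r values describe likeness of pattern and carry no test.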

How the data were processed

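Liver RNA of 12 libraries was depleted of ribosomal RNA and read in pairs on an Illumina instrument, per the labels' protocols. Reads were trimmed with Trimmomatic 0.36, inspected with FastQC and aligned with HISAT2, per the submitters' processing notes. HTSeq gave the whole-number count of each gene that the authors deposited, by the account in the labels, and the authors also deposited an RPKM value per gene beside it. The genome build, annotation, strand setting and multi-mapping rule were not given in the sources used here, and overlapping, antisense and near-identical genes may share reads.

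Counts were tested with edgeR 4.0.16 in R 4.3.3 (TMM scaling, filterByExpr, robust quasi-likelihood fit of 4 group means on all 12 libraries, 8 residual degrees of freedom, Benjamini-Hochberg over 15916 genes, two-sided, threshold 0.05). Fold changes carry the SE of the fit, and the common biological coefficient of variation was 0.299. CPM used TMM library sizes, while the deposited RPKM was scaled to total counts. Genes dropped by the filter held little, since 99.96% of counts were in tested genes. Scripts were tested on simulated data. Libraries of a group differed beyond sampling noise (chi-square per degree of freedom 87.9 to 645).

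The members and the lists were chosen with earlier results of these data known. Named were the 8 members, each list's genes past the threshold or up to 2 with the smallest p, of which those bearing on the members are given, and the 5 genes most like Abcc3 and Abcc4. A gene of the Nrf2 list is counted but not reported here by name. Alternatives were RLE scaling, no filter, DESeq2 1.42.0, a replicate block, each library left out and, added after seeing the data, 4 libraries low in Fga left out and Abcc6 added to the basolateral sum.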

Additional observations from a re-analysis of the deposited data

How the results depend on the processing

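Each result was recomputed under 17 alternatives, and of 46 named log2 fold changes 21 kept their direction and their side of the threshold in all of them, while 4 reversed in at least 1. RLE scaling and dropping the filter left every count of members called as it was. With no filter, the averaged SAMC call of Ephx1 and the averaged diet calls of Gstp1 and Nr1i3 were lost. With DESeq2 the count of members called became 1 for HFD against Control, 1 for HFD+SAMC against HFD, 2 for Control+SAMC against Control (Abcc3, Abcc4) and 1 for diet averaged over SAMC. DESeq2 called 315, 249, 219, 272, 455, 436, 538 and 128 of all genes where edgeR called 23, 8, 19, 10, 28, 35, 67 and 23, taking first the diet effect without SAMC, the SAMC effect on the high fat and on the normal diet, the diet effect under SAMC and both against neither, then SAMC averaged, diet averaged and the interaction, and the cause was not tested. In that order, edgeR called 4 to 53, 1 to 27, 3 to 23, 1 to 45, 7 to 53, 13 to 68, 30 to 130 and 7 to 19 of all genes when a library was left out, 29, 19, 26, 21, 61, 67, 67 and 17 with no filter, 24, 11, 6, 2, 28, 10, 53 and 9 with the replicate block, and 3, 0, 22, 25, 41, 42, 31 and 2 without the 4 libraries lowest in Fga. Leaving out each library gave 0 to 1 members called for Control+SAMC against Control and 0 to 1 for HFD+SAMC against Control, and fewer samples entered those fits.

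Replicate numbers did not pair the libraries. Over 15 pairs with the same number, deviations from the group means correlated at -0.221 to 0.248, 2 pairs exceeded 0.1, and 1 of 12 libraries correlated best with its own number. With the replicate block, 0 members were called for Control+SAMC against Control (Abcc3 log2 fold change 3.02, adjusted p = 0.0737) and 0 for SAMC averaged over the diets (2.18, adjusted p = 0.0599), and the fold change of Abcc4 in HFD against Control became -0.027. Under the block Abcg5 and Abcg8 passed in HFD against Control (adjusted p = 0.0464 and 0.0362) and Abcg8 in HFD+SAMC against HFD (0.0302). The averaged SAMC calls of Akr1b8, Ephx1, Gsr, Aldh1a1 and Cyp2b1 were lost under it (adjusted p = 0.056, 0.133, 0.0652, 0.0652 and 0.0619), as were the averaged diet calls of Gstp1, Cyp3a18 and Nr1i3 (0.0979, 0.0623 and 0.0623).

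Without the 4 libraries lowest in Fga, 0 members were called for Control+SAMC against Control (Abcc3 2.77, adjusted p = 0.106) and 0 for SAMC averaged over the diets (2.25, adjusted p = 0.0772), with 8 libraries left. Abcc3 kept its call for HFD+SAMC against Control (3.46, adjusted p = 0.0395). The averaged SAMC calls of Akr1b8, Ephx1 and Gsr were also lost without these 4 libraries, as were the averaged diet calls of Gstp1, Cyp3a18 and Nr1i3. So was the call of Abca8a in HFD+SAMC against Control. Reversals were all in effects that had not passed. Abcc3 in HFD+SAMC against Control+SAMC ran from -0.15 to 0.70 over the fits leaving out a library, and was -0.10 without Control+SAMC replicate 3 and -0.15 without HFD+SAMC replicate 2. Abcc4 ran from -0.046 to 0.31 in HFD against Control and from -0.079 to 0.25 in HFD+SAMC against HFD, where it was -0.25 without the 4 libraries. Abcb1a in HFD+SAMC against HFD was 0.025 without them. Abcc3 had 149 or more counts in every library, and the parts of depth and of the spread between libraries were not tested.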
